A study of Arabidopsis thaliana with 3 samples.

Results

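Cytochrome P450 genes were described in whole seedlings of Arabidopsis thaliana on 3 ATH1 arrays, a short-oligonucleotide platform with several probes to a transcript. The members were chosen by symbol: a gene in the probe-to-gene table counted where its name is CYP followed by a family number, a letter and a further number. This gave 23 of 13356 named genes, each read by 1 probe set of its own. Of the 23, 19 belong to subfamily CYP71B, and the other 4 are CYP51G2, CYP78A9, CYP79A2 and CYP84A4, so the text below is in the main about CYP71B and not about the P450 superfamily. The pattern leaves out CYP718, a P450 whose symbol has no letter, and the cyclophilin genes CYP59 and CYP71. A further 2 probe sets carry a P450 symbol together with another gene and were not assigned to either gene. The table names no gene for 8730 other probe sets, so any P450s among them were not read.

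There was 1 array for each of 3 groups: wild type, and transgenic plants that overexpress DRB2 or DRB3 (below, DRB2 plants and DRB3 plants). All were seedlings 2 weeks old, grown at 22 °C in days of 16 h light and 8 h dark. DRB2 and DRB3 encode proteins that bind double-stranded RNA. The labels do not say which promoter drives the transgenes, how many lines were made or whether plants were pooled.

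Cytochrome P450 enzymes hold a heme group and use molecular oxygen and electrons from a reductase to oxidise small molecules. In plants they act in the synthesis and breakdown of hormones, in lignin, cutin and wax synthesis, and in the making of defence compounds such as glucosinolates and camalexin. Family and subfamily numbers follow protein similarity, and CYP71B is one of the largest subfamilies in Arabidopsis, with many members in tandem arrays of neighbouring genes. Its best known member, CYP71B15 or PAD3, makes camalexin in the last steps of that pathway and was not analysed here.

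The arrays have no replicates, so values are given with no error and no p-value, and precision is limited by the number of arrays. A difference is called where intensities differed at least 2-fold after values under a floor of 109 intensity units had been set to the floor. Any fold with a value under the floor is a bound, written "at least". A control for RNA integrity differed between the arrays: the 3' over 5' signal ratio of a GAPDH probe pair was 9.31 for wild type, 5.77 for DRB2 and 3.89 for DRB3 plants. Of seedling markers, 7 nuclear photosystem and light-harvesting genes read between 1720 and 27376 over the arrays, and the root hair expansin gene EXPA18 read 184 in wild type, 278 in DRB2 and 439 in DRB3 plants. The other root hair expansin, EXPA7, read 52.1, 95.1 and 158 in wild type, DRB2 and DRB3 plants, the first and second of these under the floor. No named probe set reads DRB2 or DRB3, so the labels could not be checked against the transgenes.

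Of the 23 members, 12 were above the floor on 1 or more arrays and 9 on all 3 arrays. The remaining 11 were under the floor on every array, at 0.63 to 91.9 intensity units, so no ratio is given for them. Of the 12, 11 are CYP71B genes and the other is CYP78A9. Since levels of different probe sets cannot be set against each other, each gene is compared below only with itself on the other arrays.

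**Figure D1:**
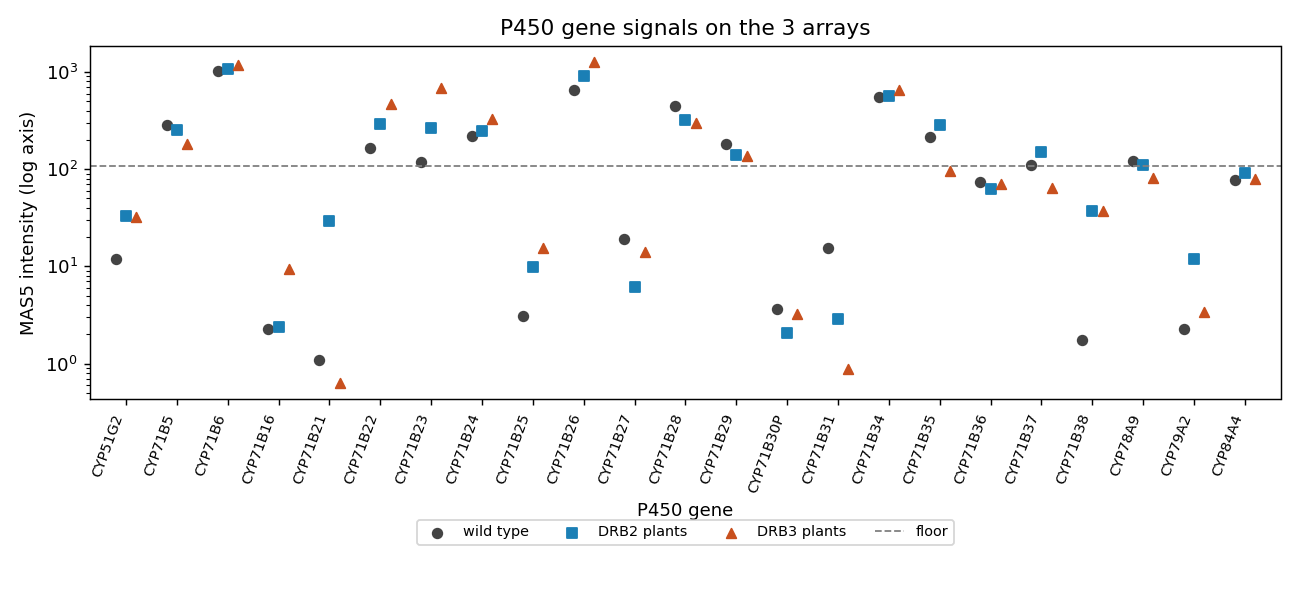
MAS5 intensity (vertical log axis) of the 23 P450 genes (horizontal axis) on the arrays of wild type, DRB2 plants and DRB3 plants, 1 point per array, with the floor of 109 as a dashed line. A reader should see 11 genes with all 3 points under the line, and CYP71B23 and CYP71B22 climbing from wild type to DRB3 plants.

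CYP71B23 had the highest ratio of the family in each of the 3 comparisons. It read 120 in wild type, 266 in DRB2 plants and 684 in DRB3 plants. The DRB3 value was highest and wild type lay just above the floor. The gene was 2.23-fold higher in DRB2 plants than in wild type, 5.71-fold higher in DRB3 plants than in wild type and 2.57-fold higher in DRB3 than in DRB2 plants. Among the named genes above the floor on both arrays compared, these ratios ranked 34 from the highest of 6975, 8 of 6877 and 19 of 6982. Any pair of these ratios shares an array, so they are not separate evidence.

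CYP71B22, the gene next to CYP71B23 on the chromosome, had the same order. It read 163 in wild type, 294 in DRB2 plants and 465 in DRB3 plants. Against wild type it was 1.80-fold higher in DRB2 plants, under the threshold, and 2.85-fold higher in DRB3 plants. The step from DRB2 to DRB3 plants was 1.58-fold. In DRB3 plants against wild type its ratio ranked 46 from the highest of 6877. The order of these arrays is that of EXPA18, and the reverse of the order of the GAPDH 3' to 5' ratio. The part of root content and of RNA quality in these P450 values was not tested, and in whole seedlings fewer cells of a type and less RNA per cell cannot be told apart.

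CYP71B26 and CYP71B24 followed the same order by smaller steps. CYP71B26 read 648 in wild type, 909 in DRB2 plants and 1269 in DRB3 plants. Its ratio to wild type was 1.40-fold in DRB2 plants and 1.96-fold in DRB3 plants, just under the threshold. CYP71B24 read 222, 249 and 331 in the same order of arrays and was 1.49-fold higher in DRB3 plants than in wild type. CYP71B34 read 551, 560 and 648, a 1.18-fold difference between DRB3 plants and wild type. These 3 genes were highest in DRB3 plants, and none of them passed 2-fold in any comparison.

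CYP71B35 and CYP71B37 were highest in DRB2 plants and lowest in DRB3 plants. CYP71B35 read 215 in wild type, 282 in DRB2 plants and 96.0, under the floor, in DRB3 plants. It was 1.31-fold higher in DRB2 plants than in wild type, and in DRB3 plants it was lower than wild type by a factor of at least 1.98 and lower than DRB2 plants by a factor of at least 2.60. CYP71B37 read 111, 149 and 64.5 in the order wild type, DRB2 plants and DRB3 plants. With the last value under the floor, the DRB3 value was below the DRB2 value by a factor of at least 1.37, and since wild type lay at the floor, the bound against it was only 1.02.

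CYP71B5, CYP71B28 and CYP71B29 were lower in both overexpressors than in wild type, each under 2-fold. CYP71B5 read 284 in wild type, 253 in DRB2 plants and 181 in DRB3 plants, the DRB3 value being 1.57-fold below wild type. CYP71B28 read 452, 320 and 302 in that order, a log2 ratio to wild type of -0.50 in DRB2 and -0.58 in DRB3 plants. CYP71B29, its neighbour, read 182, 140 and 138, and was 1.30-fold and 1.32-fold lower. For this neighbouring pair the overexpressors were within 1.06-fold of each other, and both read below wild type. In DRB2 plants against wild type, CYP71B28 and CYP71B29 ranked 518 and 889 from the lowest of 6975 genes above the floor on both arrays. In DRB3 plants they ranked 676 and 1223 of 6877, so many genes had lower ratios.

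CYP71B6 converts indole acetonitrile, a product of the indole pathway that also leads to camalexin. It read 1036 in wild type, 1076 in DRB2 plants and 1180 in DRB3 plants, and the outer values differed 1.14-fold. CYP78A9, of a family that promotes organ growth and known for large fruits when overexpressed, read 122 in wild type, 109 in DRB2 plants and 82.0, under the floor, in DRB3 plants. Its bound in DRB3 plants against wild type was at least 1.13-fold lower. Neither gene passed 2-fold in any comparison.

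**Figure D2:**
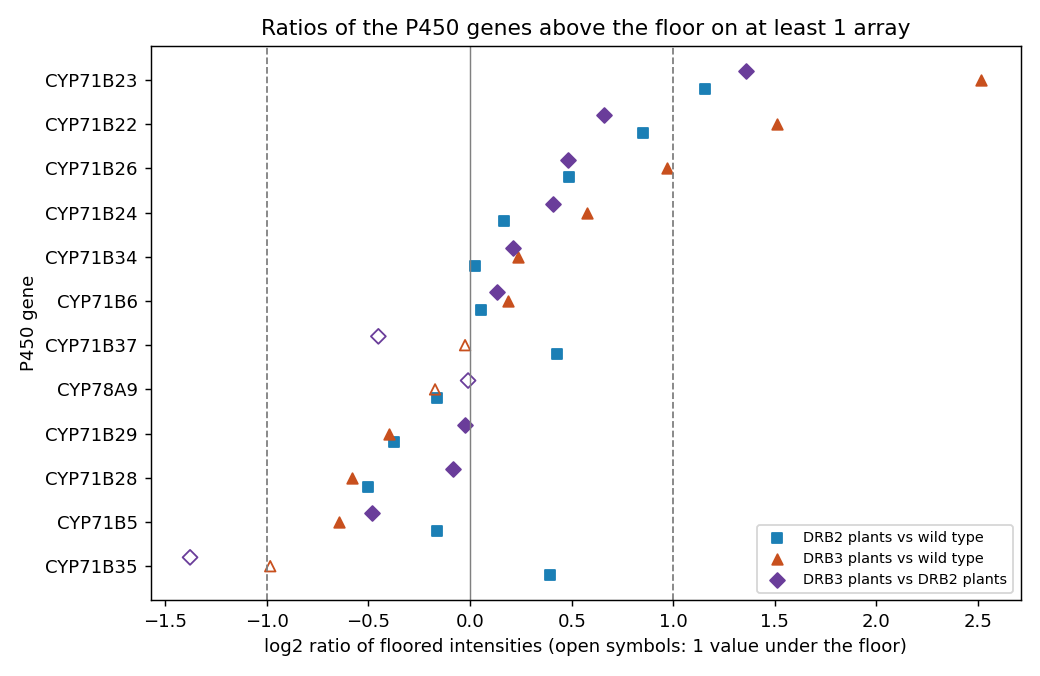
log2 ratio of floored intensities (horizontal axis) for the 12 P450 genes above the floor on 1 or more arrays (vertical axis, sorted by DRB3 plants against wild type), 1 symbol per comparison, open where 1 value lay under the floor. Dashed lines mark 2-fold; CYP71B23 lies past the upper line in all 3 comparisons, CYP71B22 in DRB3 plants against wild type, and CYP71B35 past the lower line in DRB3 against DRB2 plants.

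The genes under the floor included several with known products. CYP79A2, which turns phenylalanine into the oxime used for benzyl glucosinolate, read 2.28 in wild type, 12.0 in DRB2 plants and 3.38 in DRB3 plants. CYP84A4, a phenylpropanoid hydroxylase that leads to arabidopyrones, read 77.5, 91.9 and 78.5 in the same order. CYP71B31, which oxidises the monoterpene alcohol linalool, read 15.3, 2.85 and 0.88. CYP51G2, a relative of the sterol demethylase CYP51G1, read 12.0, 33.3 and 32.0, and it and CYP71B27 are annotated as transcribed pseudogenes in RefSeq. CYP71B36, whose neighbours CYP71B35 and CYP71B37 were above the floor on 2 arrays each, read 74.0, 62.0 and 69.7. The remaining members, CYP71B16, CYP71B21, CYP71B25, CYP71B30P and CYP71B38, read at most 36.9. CYP71B38 went from 1.75 in wild type to 36.7 and 36.9 in DRB2 and DRB3 plants, and CYP71B21 read 1.08 and 0.63 in wild type and DRB3 plants and 29.6 in DRB2 plants. All these values lie in a range where no order is read from them here.

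Counted over the family, 1 of 23 members was at least 2-fold higher in DRB2 plants than in wild type, CYP71B23, where 0.532% of all named genes were. The share was 0.914% of the 7766 named genes above the floor on 1 or more arrays, and 8.33% of the 12 P450 genes so measured. No member was at least 2-fold lower, where 0.412% of named genes and 0.708% of those above the floor on 1 or more arrays were. The median log2 ratio of the 12 was 0.11, with 8 above and 4 below 0, beside 0.01 over the 7766 genes. Of the 7766, 51.9% were above 0. Counts of 1 or 0 in so small a family say little about the family as a whole.

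In DRB3 plants against wild type, 2 of 23 members were at least 2-fold higher, CYP71B23 and CYP71B22, where 1.44% of all named genes and 2.47% of those above the floor on 1 or more arrays were. On floored values none was at least 2-fold lower, where 1.53% of named genes and 2.64% of those above the floor on 1 or more arrays were. CYP71B35, under the floor in DRB3 plants, was lower by a factor of at least 1.98. Whether it passes 2-fold cannot be told from that bound. The median log2 ratio of the 12 measured members was 0.08, with 6 above and 6 below 0, so the family had no common direction. Over the 7766 genes the median was 0.00, with 48.5% above 0. The median distance from 0, without regard to sign, was 0.58 on the log2 scale for the 12 members and 0.27 for the 7766 genes. It was 0.39 for the 38 measured UGT and BGLU genes described below. In DRB2 plants against wild type the P450 genes and the UGT and BGLU genes both stood at 0.39, beside 0.21 over the 7766 genes. In DRB3 against DRB2 plants the values were 0.43, 0.38 and 0.23 in that order. The lists were not matched for signal level.

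In DRB3 against DRB2 plants, on floored values, 1 member was at least 2-fold higher, CYP71B23, and 1 at least 2-fold lower, CYP71B35. CYP71B37 was lower by a factor of at least 1.37, again a bound. The shares of all named genes were 0.577% and 0.614%, and of those above the floor on 1 or more arrays 0.992% and 1.06%. The median log2 ratio of the 12 was 0.06, with 6 above and 6 below 0, beside -0.01 over the 7766 genes. Of the 7766, 46.9% were above 0. Loess turned the split of the 12 into 8 above and 4 below 0. Quantile normalization turned it into 7 above, 4 below and 1 at 0, both through CYP71B29 and CYP78A9. The glycosyltransferase and beta-glucosidase genes named UGT or BGLU, another large set of enzymes of small molecules, had 67 named genes, of which 38 were above the floor on 1 or more arrays. Of these 67, 1 was at least 2-fold higher and 0 lower in DRB2 plants against wild type, 3 higher and 1 lower in DRB3 plants against wild type, and 1 higher and 2 lower in DRB3 against DRB2 plants. With no replicates, the difference between the families was not tested.

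**Figure D3:**
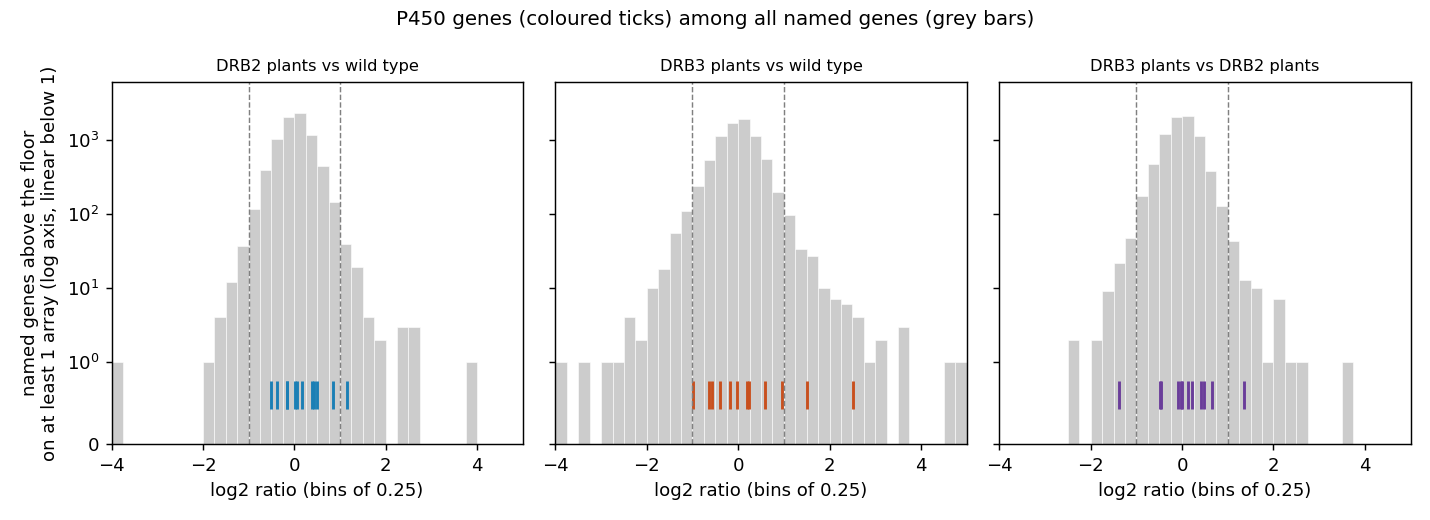
Number of named genes above the floor on 1 or more arrays (vertical axis, log scale, linear below 1) by log2 ratio in bins of 0.25 (horizontal axis), 1 panel per comparison, with the 12 measured P450 genes as coloured ticks and 2-fold as dashed lines. Most ticks lie within the bulk of the bars, and the tick of CYP71B23 at 2.51 in the middle panel lies in the sparse upper tail.

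For 10 of the 12 measured members the value of DRB2 plants fell between those of the other arrays. In 6 of them intensity increased from wild type through DRB2 to DRB3 plants (CYP71B6, CYP71B22, CYP71B23, CYP71B24, CYP71B26 and CYP71B34), where 20.7% of the 7766 genes had that order. In 4 it decreased (CYP71B5, CYP71B28, CYP71B29 and CYP78A9), where 20.1% did. In either direction the share of the 7766 genes was 40.7%. Orders were read on floored values, so a gene above the floor on 1 array only can have neither order. Such genes lower these shares, and none of the 12 members is among them. The remaining members, CYP71B35 and CYP71B37, had DRB2 plants highest. For CYP78A9, CYP71B34 and CYP71B29 a step between neighbouring arrays was at most 1.02-fold on floored values, so their place in this count is weak. With quantile normalization or loess CYP71B29 and CYP78A9 no longer decreased, which left 2 decreasing members and 8 with DRB2 plants between. At percentile 60 of the floor 3 increased and 1 decreased.

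Gene order in the RefSeq table (assembly TAIR10.1) was then used to set the members beside their neighbours. No coordinates are given, since the build of the array annotation is not stated in the sources used here. A block on chromosome 3 runs from CYP71B16 (AT3G26150) to CYP71B37 (AT3G26330) and holds 24 genes and pseudogenes, 18 of them P450s. Of its 11 members read here, 7 were above the floor on 1 or more arrays. All 5 members that increased along the arrays other than CYP71B6 lie in this block, and so do CYP71B35 and CYP71B37 at its far end. No member of the block was lower in DRB2 plants than in wild type among the 7, where 3619 of the 7766 genes were. CYP71B34 was higher by only 1.02-fold. The median log2 ratio of the 7 was 0.43 in DRB2 plants and 0.58 in DRB3 plants against wild type. The split by block was made after the values were seen and has no test.

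Within the block, neighbours ran from close to opposite. CYP71B22 (AT3G26200) and CYP71B23 (AT3G26210) are adjacent and had log2 ratios of 1.51 and 2.51 in DRB3 plants against wild type. CYP71B21 (AT3G26190), on the other side of CYP71B22, was under the floor on all 3 arrays. CYP71B34 (AT3G26300) and CYP71B35 (AT3G26310) are also adjacent, with log2 ratios of 0.23 and of -0.98 or lower. One probe set listed for a pair of CYP71B genes of this block read 1221 in wild type, 1353 in DRB2 plants and 1421 in DRB3 plants and is assigned to neither. All 23 members have probe sets of the class designed to match 1 transcript, and whether any of them also binds transcripts of close paralogs was not tested.

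Of the genes flanking the block that are not P450s, 3 were above the floor, all past CYP71B37, and their ratios stood near or below 0. On the CYP71B16 side and inside the block, no gene other than a P450 gave a ratio. AT3G26360 read 435 in wild type, 353 in DRB2 plants and 412 in DRB3 plants, AT3G26370 read 724, 612 and 684, and AT3G26380 read 690, 692 and 696. Against wild type, the log2 ratios of these 3 genes lay from -0.30 to 0.01 in DRB2 plants and from -0.08 to 0.01 in DRB3 plants. The other 3 flanking genes read here, AT3G26130, AT3G26140 and AT3G26350, were under the floor on all 3 arrays.

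**Figure D4:**
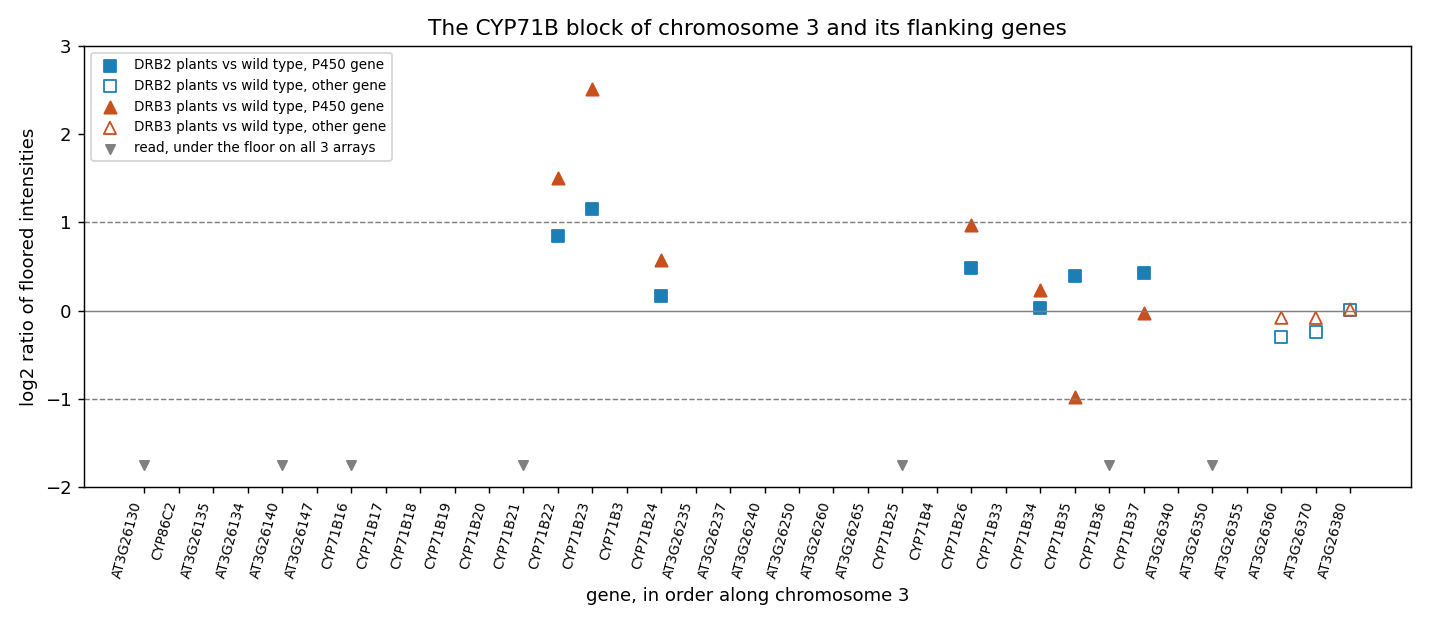
log2 ratio of floored intensities against wild type (vertical axis) for genes in their order along chromosome 3 (horizontal axis), from CYP71B16 to CYP71B37 with 6 genes on each side; filled symbols are P450 genes, open symbols other genes, grey triangles genes under the floor on all 3 arrays, and names with no symbol were not analysed here. CYP71B22 and CYP71B23 stand highest, CYP71B35 is lowest in DRB3 plants, and the open symbols on the right lie between -0.30 and 0.01.

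Of the 5 measured members outside this block, 4 were lower in both overexpressors than in wild type, and CYP71B6 was the other. Of the 7766 genes, 3619 were lower than wild type in DRB2 plants and 3774 in DRB3 plants. How many were lower in both was not counted. It cannot be worked out from those counts, since the wild-type value enters each ratio. CYP78A9 read 122 in wild type and 109 in DRB2 plants, close to the floor, so its place among the 4 is weak. On chromosome 1, a block of 5 P450 genes from CYP71B27 to CYP71B7 holds CYP71B28 (AT1G13090) and CYP71B29 (AT1G13100), with log2 ratios of -0.50 and -0.38 in DRB2 plants and -0.58 and -0.40 in DRB3 plants against wild type. The non-P450 genes near it that were above the floor, AT1G13000 and AT1G13030, had ratios of 0.50 and 0.03 in DRB3 plants against wild type. In a second block of chromosome 3, CYP71B5 (AT3G53280) had a ratio of -0.65 in DRB3 plants, and CYP71B30P and CYP71B31 were under the floor. There the flanking genes AT3G53270 and AT3G53320, which are not P450s, had ratios of -0.65 and -0.66 or lower, beside that of CYP71B5, and the ratio of AT3G53310, under the floor in wild type, was at least 0.06.

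Of the role lists for hormone, wall, lipid and defence P450s, few members were named in the probe-to-gene table. Probe sets with no name there may read others. The list of indole compounds and glucosinolates had 1 of 16 read (CYP71B6), phenylpropanoids 1 of 7 (CYP84A4), organ growth 1 of 6 (CYP78A9) and sterols and triterpenes 1 of 10 (CYP51G2). The first of these lists leaves out CYP79A2, the benzyl glucosinolate enzyme described above, which was read and lay under the floor. The lists for brassinosteroids, gibberellins, abscisic acid, jasmonate, fatty acids, carotenoids, cytokinins, strigolactones, homoterpenes and iron-linked coumarins had 0 read, and of 35 other symbols searched for P450 genes 0 were read. Of 70 partner genes, 4 were read, and none passed 2-fold in any comparison. BCAT4, the aminotransferase at the start of methionine-derived glucosinolate synthesis, read 4055 in wild type, 6981 in DRB2 plants and 4101 in DRB3 plants, 1.72-fold higher in DRB2 plants than in wild type. GSTU20, a glutathione transferase linked to glucosinolate synthesis, read 4672, 7429 and 6047. UGT74B1, which glucosylates the thiohydroximate in glucosinolate synthesis, read 2052, 1427 and 1670, and HCT, a transferase of lignin synthesis, read 3187, 2788 and 2629. BCAT4 and GSTU20 were highest in DRB2 plants, where UGT74B1 was lowest.

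The call of CYP71B23 in DRB2 plants was lost at the highest floor tried. Under the other alternatives its log2 ratio to wild type was 1.06 to 1.15, past 2-fold by little. With the floor at percentile 60, an intensity of 302, the gene was under it in both wild type and DRB2 plants and had no ratio there. In DRB3 plants its log2 ratio to wild type was then at least 1.18, and over the other alternatives tried it reached 2.51. CYP71B22 was then at 0.62 or higher and no longer past 2-fold, and CYP71B35 was under the floor on all 3 arrays. CYP71B26, with all values above that floor, had log2 ratios from 0.95 to 0.97 in DRB3 plants against wild type over all the alternatives.

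**Figure D5:**
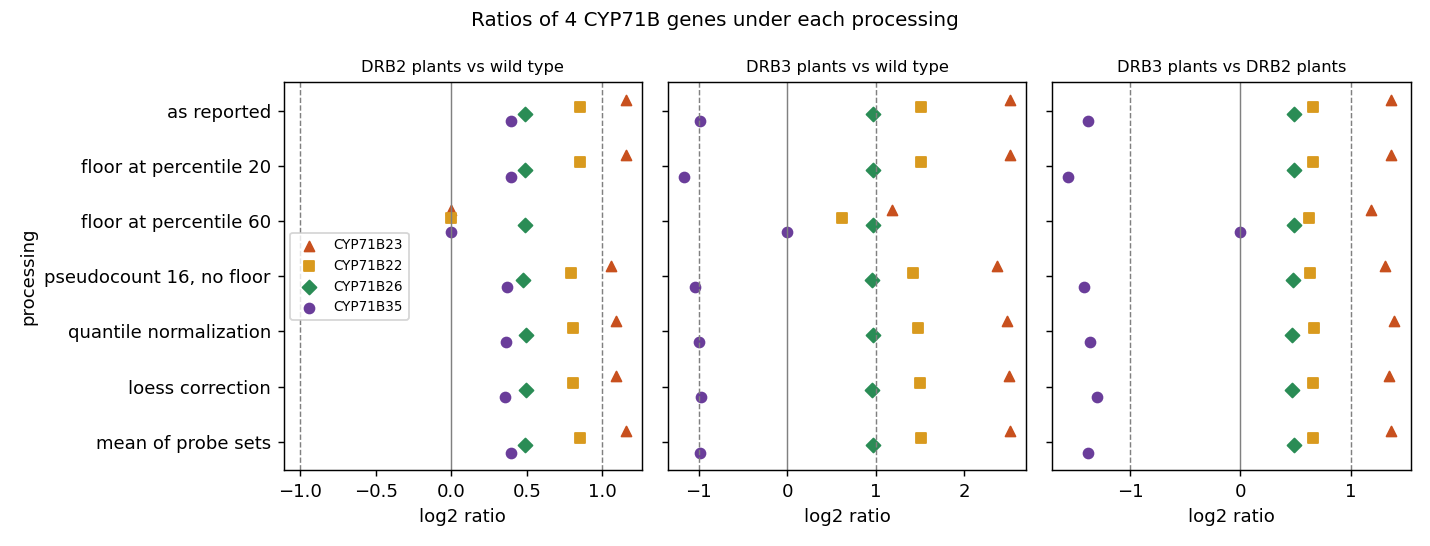
log2 ratio (horizontal axis) of CYP71B23, CYP71B22, CYP71B26 and CYP71B35 under each processing (vertical axis), 1 panel per comparison, with 2-fold as dashed lines and points at 0 where both values lay under the floor. The floor at percentile 60 moves CYP71B23, CYP71B22 and CYP71B35 toward 0, while CYP71B26 stays between 0.95 and 0.97 in DRB3 plants against wild type.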

How the data were processed

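RNA from whole seedlings was hybridised to 3 arrays, 1 per genotype, and groups were taken from the genotype label. The design text of the series concerns a kinase and salt treatment instead and was not used. The authors deposited intensity values on a linear scale, 1 per probe set, from MAS5, as the submitters' processing notes say (version not given in the sources used here). Their 2% trimmed mean was 500.05 on each array, so no further scaling was applied.

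Of 22810 probe sets, 64 controls were left out. Probe sets with 1 listed gene numbered 13513. Those with several, 503, and those with none, 8730, were left out of the gene list. A gene took its brightest probe set, which gave 13356 genes. P450 symbols were matched by pattern, and all 23 equal the RefSeq symbol (TAIR10.1). The floor, 109, is percentile 40 of the probe sets that are no controls, averaged over the arrays. Lower values were raised to it and log2 ratios taken. Counts past 2-fold were set beside those over all named genes. No test across samples was possible.

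Members named were those past 2-fold, the 5 highest and 5 lowest ratios of each comparison, the 5 brightest and up to 3 per role list, with up to 4 partner genes. The other members, the expansin, photosystem and flanking genes and the array controls fall outside this rule and were named once their values were known. The members, lists and floor were chosen with earlier results of these data known. LCR in the probe table is an F-box gene and not the P450 of that name. Alternatives were quantile normalization, loess with a span of 0.3, averaging a gene's probe sets, no floor but a pseudocount of 16, and floors at percentile 20 and 60. The steps were checked on simulated data, with changes placed only in genes well above the floor. The check therefore does not bear on weaker signals, where the floor decides a call. Tools were matplotlib 3.10.9, statsmodels 0.14.6, scipy 1.17.1, pandas 2.3.3 and numpy 2.4.6 under Python 3.11.15.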

Additional observations from a re-analysis of the deposited data

How the results depend on the processing

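No paired analysis was possible because each group has 1 array. Quantile normalization, loess and the mean of probe sets left the counts of P450 genes past 2-fold as reported, and no member has several probe sets. Quantile normalization and loess did change the sign of small ratios in DRB3 against DRB2 plants: CYP71B29 went from -0.03 to 0.07 and 0.05, and CYP78A9 from -0.01 to 0.00 and 0.05. Counts past 2-fold moved with the floor and the pseudocount. With the floor at percentile 20, an intensity of 26.7, CYP71B35 became the 1 P450 gene lower in DRB3 plants against wild type, and CYP71B35 and CYP71B37 the 2 lower in DRB3 against DRB2 plants. With the floor at percentile 60 only 7 members were above it on at least 1 array: 0 were higher in DRB2 plants against wild type, 1 (CYP71B23) in DRB3 plants against wild type, and 0 were lower in DRB3 against DRB2 plants. Of the 12 genes, 8 then had a ratio of 0 in DRB2 plants against wild type and 5 in each of the other comparisons. With a pseudocount of 16 and no floor, 3 were higher in DRB2 plants against wild type (CYP71B21, CYP71B23 and CYP71B38), 3 higher (CYP71B22, CYP71B23 and CYP71B38, as against 2) and 1 lower (CYP71B35) in DRB3 plants against wild type, and 3 lower in DRB3 against DRB2 plants (CYP71B21, CYP71B35 and CYP71B37). Of 216 recomputed ratios of the 12 genes, 206 moved by no more than 1.5-fold, 10 by more, and no ratio past 2-fold changed sign. The 206 include all ratios under the mean of probe sets, which could not move for genes with 1 probe set. They also include ratios set to 0 at percentile 60 because both values lay under the floor. The count is therefore no measure of how stable the ratios are.

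Over all named genes, counts higher and lower in DRB2 plants against wild type, 71 and 55 as reported, were 429 and 162 at percentile 20, 29 and 24 at percentile 60, and 662 and 279 with the pseudocount. For DRB3 plants against wild type, 192 and 205 became 369 and 400, 98 and 107, and 508 and 512 under the same settings. Between the overexpressors, 77 and 82 became 164 and 404, 32 and 30, and 261 and 610. The median log2 ratio of measured P450 genes changed sign in DRB3 plants against wild type with the pseudocount (-0.09, as against 0.08). In DRB3 against DRB2 plants at percentile 20 it was -0.03, as against 0.06. That median is over the 17 members above the lower floor, so the set of genes changed as well. The 12 genes themselves stayed at 6 above and 6 below 0 there. Signals near background limit all members but the brightest.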
